A study of Lissachatina fulica and Mizuhopecten yessoensis with 12 samples.

Results

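HAND2, GATA6, HEY1, HES1 and svp are genes of transcription factors that build and pattern hearts, and here they were followed in the atrium and the ventricle of hearts from 2 adult molluscs, the giant African snail Lissachatina fulica and the scallop Mizuhopecten yessoensis. The members were the rows whose annotated gene name is exactly one of these symbols. There were 6 of them among the 6081 rows of the deposited tables: HES1 in scallop (1 of 4195 rows) and HAND2, GATA6, HEY1, HES1 and svp in snail (5 of 1886 rows), each with 1 copy. Wild-type animals were used throughout, and each chamber of each species was sequenced as 3 poly-A selected bulk RNA libraries, 12 in all. Nothing in the labels ties a replicate to an animal of its own, so the p-values cover the spread among these libraries, and that spread may be technical. HAND2, GATA6, HEY1 and svp of scallop were not analysed here.

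HAND2 is a basic helix-loop-helix activator needed for heart growth in vertebrates, where the mouse gene is best known for its role in the right ventricle. GATA6 is a zinc-finger factor of heart and gut development that works beside HAND and T-box factors. HEY1 and HES1 belong to the Hairy family of basic helix-loop-helix repressors, which are switched on by Notch receptors; in the mouse heart Hey1 marks atrial and Hey2 ventricular muscle. The svp gene (seven-up) encodes an orphan nuclear receptor of the COUP-TF family; in the fruit fly heart it marks the cells that form the inflow openings, and its mouse relative COUP-TFII acts in the atria. The symbols in the tables were transferred from such animals and are not ortholog calls.

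Only rows that the authors had selected as different between the chambers were listed: in the authors' deposited tables no unadjusted p reached 0.05, and the smallest absolute log2 fold change was 1.001 in each species. A test run over these preselected rows gives no independent support for a difference, and the size, direction and spread of the differences are the results. Levels are normalized counts, that is gene reads divided by 1 size factor per library, with no correction for gene length, so levels are compared between chambers and not between genes. Reads on listed genes numbered 606309 to 1165104 per snail library and 10120508 to 21526834 per scallop library. A single read was worth 0.665 to 0.758 normalized counts in snail atria and 1.08 to 1.71 in snail ventricles. Log2 fold changes compare atrium with ventricle (positive where the atrium is higher) after adding 1 to each normalized count, and a row was called with a limma adjusted p under 0.05 and at least a 2-fold change. Among tested rows, 83.9% were called in snail (46.9% toward the atrium, 37% toward the ventricle) and 87.6% in scallop (42% and 45.6%). Libraries of the chambers did not overlap in 86.2% of snail rows and 87.8% of scallop rows. The share of atrial calls was 55.9% in snail and 34.9% there under quantile normalization; it was 47.9% in scallop, 74.4% after a further TMM scaling and 96.7% after a rescaling to equal ribosomal protein medians. With these scalings the median log2 fold change over tested rows went from 1.22 to 0.20 (quantile) in snail, and from −1.01 to −0.52 (TMM), −0.37 (quantile) and 0.21 (ribosomal) in scallop.

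In snail hearts 1 of the 5 factors, HAND2, was read in the ventricle and not in the atrium, and the other 4 were higher in the atrium. All 4 tested members were called, against 83.9% of all tested snail rows, so the number of calls says nothing particular to them. In all 5, no atrial library overlapped a ventricular one, against 86.2% of tested rows. All 10 listed muscle markers had reads in each chamber. They summed to 27208 to 35162 normalized counts in snail atria and 96673 to 200554 in ventricles. Such markers cannot tell heart from other muscle, so they do not test the heart label.

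HAND2 (Afu014581) had 0 reads in each of the 3 snail atria and normalized counts of 395.2, 246.0 and 239.2 in ventricles 1, 2 and 3, which rest on 366, 144 and 178 reads. No atrial library held a single read although the atria carried 2986124 reads on listed genes and were scaled down more than the ventricles. A total of 3 reads over the 3 atria, the limit that a count of 0 allows, equals 0.715 normalized counts, so the ventricular mean of 293.4 ± 88.2 (SD, n = 3), taken as measured, was at least 410-fold higher. The fitted log2 fold change was −8.16 ± 0.38 (SE; limma adjusted p = 6.34e-05), a value set by the added count of 1 and no bound. In this fit HAND2 ranked 2 of 1489 rows by size toward the ventricle, and in the authors' deposited table its log2 fold change of 11.1 for ventricle over atrium ranked 1 of 1886. Of the 19 snail rows with no atrial read, 9 with a symbol, HAND2 had the highest ventricular mean, and the next stood at 127.0.

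The listed muscle markers moved the same way as HAND2, with 7 of 10 called toward the ventricle, 1 toward the atrium and 2 not called. Of all tested snail rows, 37% were called toward the ventricle and 46.9% toward the atrium. All 10 muscle markers had atrial reads, whereas HAND2 had none. In bulk tissue, fewer cells of a type and less RNA per cell cannot be told apart, and the part of muscle content in the HAND2 difference was not tested. In ventricles 1, 2 and 3 the muscle markers summed to 99705, 200554 and 96673, beside HAND2 at 395.2, 246.0 and 239.2. These 3 libraries are too few to relate the 2 measures.

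**Figure D1:**
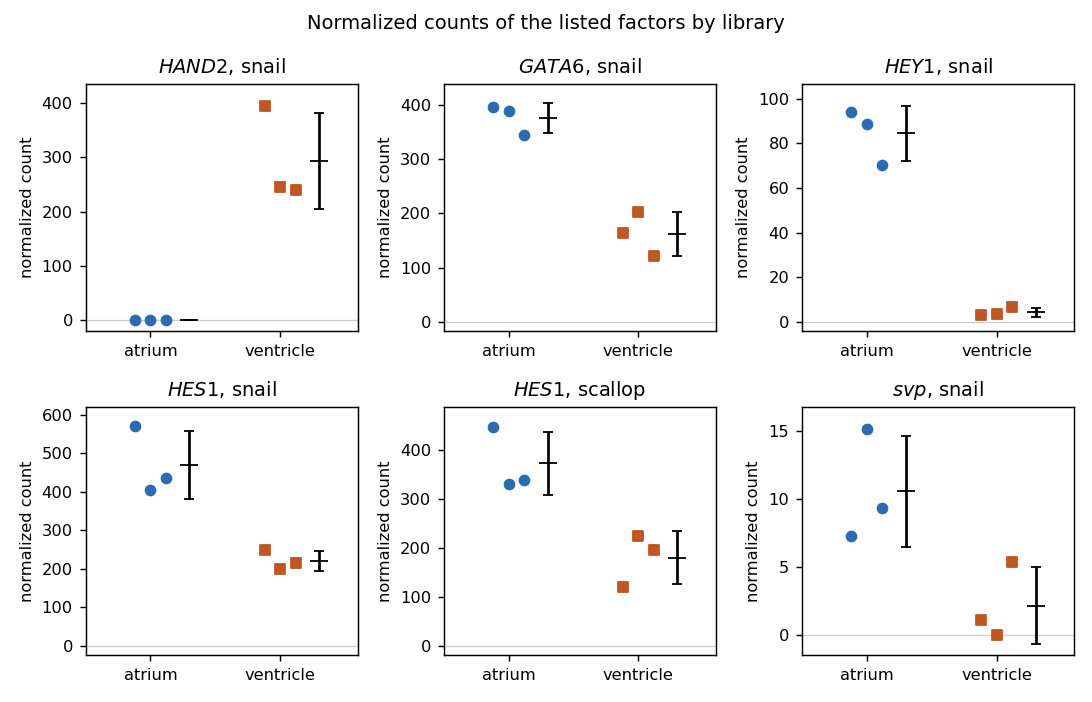
Normalized counts (vertical axes, linear, 1 scale per panel) of each factor in the 3 atrial (blue circles) and 3 ventricular (orange squares) libraries, left to right in replicate number; bars show mean ± SD. HAND2 lies at 0 in all snail atria and at 239.2 to 395.2 in ventricles, while every atrial library lies above every ventricular one in the other 5 panels.

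GATA6 (Afu011207) stood at normalized counts of 394.9, 389.0 and 344.3 in snail atria 1 to 3 and at 163.0, 203.3 and 122.3 in ventricles 1 to 3. The atria lay close together, with an SD of 7.35% of their mean against 24.9% in the ventricles, and the lowest atrium was 1.69 times the highest ventricle. The means were 376.1 ± 27.6 and 162.9 ± 40.5 (n = 3), a log2 fold change of 1.23 ± 0.25 (95% interval 0.63 to 1.83; limma adjusted p = 0.00563). At rank 740 of 1489 toward the atrium, GATA6 lay beside the median of 1.22 over all tested snail rows. HAND2 and GATA6, partners in vertebrate heart development, differed between the snail chambers in opposite directions.

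HEY1 (Afu011096) stood at 94.2, 88.7 and 70.5 in snail atria 1 to 3 and at 3.24, 3.42 and 6.72 in ventricles 1 to 3. The ventricular values rest on 3, 2 and 5 reads, against 129, 117 and 106 in the atria, so each ventricle carried a low count rather than none. Atria exceeded ventricles 18.9-fold (84.4 ± 12.4 against 4.46 ± 1.96, n = 3), and the ratio of summed reads after size factors had a 95% interval of 10.2 to 39.8 for counting error only. The log2 fold change was 4.01 ± 0.39 (limma adjusted p = 0.000615), at rank 176 of 1489 toward the atrium.

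HES1 (Afu019448) stood at 570.7, 404.2 and 436.1 in snail atria 1 to 3 and at 248.3, 198.1 and 215.0 in ventricles 1 to 3. Atrium 1 was the highest library and the ventricles lay within a narrow band. The means were 470.3 ± 88.4 and 220.5 ± 25.5 (n = 3), a log2 fold change of 1.08 ± 0.23 (95% interval 0.53 to 1.63; limma adjusted p = 0.00626). HES1 ranked 818 of 1489 toward the atrium, below the median of 1.22 over all tested snail rows. Without atrium 1 the log2 fold change was 0.93, below the 2-fold limit, with an adjusted p of 0.025 in limma.

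The size of the atrial excess was compared among HEY1, HES1 and GATA6 through ratios of reads within a library, which do not depend on the size factors. The ratio of HEY1 to HES1 was 0.165, 0.220 and 0.162 in atria 1 to 3 and 0.013, 0.0172 and 0.0313 in ventricles 1 to 3. It was 8.87-fold higher in atria, with no overlap (exact 2-sided permutation test, p = 0.1, the smallest that 3 against 3 libraries allow). The ratio of HEY1 to GATA6 was 7.33-fold higher in atria, also without overlap (exact 2-sided permutation test, p = 0.1). By contrast, the ratio of GATA6 to HES1 was 0.692, 0.962 and 0.790 in atria and 0.657, 1.03 and 0.569 in ventricles. These ranges overlapped (0.815 ± 0.137 against 0.750 ± 0.243, n = 3; exact 2-sided permutation test, p = 0.7), so an unequal change of GATA6 and HES1 was not detected; this does not show that they changed alike.

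The svp row (Afu000346) was the lowest of the members, at 7.30, 15.2 and 9.31 in snail atria 1 to 3 and at 1.08, 0 and 5.37 in ventricles 1 to 3. These values rest on 10, 20 and 14 atrial reads and on 1, 0 and 4 ventricular reads. Its mean over the 6 libraries fell below the minimum of 10, so it had no test. Atria held 10.6 ± 4.09 and ventricles 2.15 ± 2.84 (n = 3), a ratio of summed reads after size factors of 4.73 (95% interval 1.88 to 15.3, counting error only). In the authors' deposited table its adjusted p was 0.211. Under quantile normalization its log2 difference of 2.23 went to 0.051.

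Markers of other cell types were counted in snail too. Over all tested snail rows, 46.9% were called toward the atrium and 37% toward the ventricle. Of 17 listed hemocyte markers, 11 of 16 tested were called toward the atrium and none toward the ventricle, and 3 of the 17 had no ventricular read. Their sum was 5794 to 15391 in atria and 447.0 to 876.2 in ventricles. Excretory markers had 4 of 8 called toward the atrium and 2 of 14 listed without a ventricular read, and summed to 151.7, the low of the atria, up to 2289, against 91.4 to 181.0 in ventricles. Neuronal markers (11 tested of 19 listed) had 5 atrial and 4 ventricular calls, and sums of 728.7 to 1097 and 554.9 to 876.2. Cilia and epithelium markers (2 tested of 4 listed) had 1 call each way, and sums of 25.0 to 70.5 and 17.1 to 21.5. In the neuronal list and in the cilia and epithelium list 3 genes each had no ventricular read, and 1 neuronal gene had no atrial read. Over all 1886 listed snail rows, 218 had no ventricular read and 19 had no atrial read. In atria 1, 2 and 3 the hemocyte sums were 5794, 7411 and 15391, and the excretory sums 936.4, 151.7 and 2289. These 3 libraries are too few to relate the sums to the factors. The part of these cells in the atrial excess of GATA6, HEY1, HES1 and svp was not tested.

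**Figure D2:**
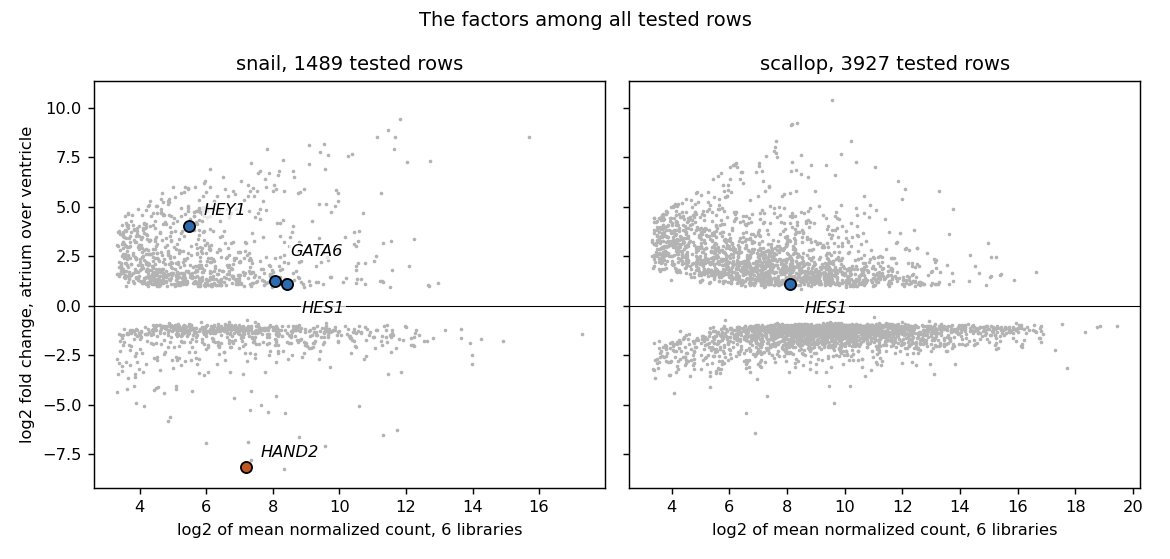
Log2 fold change of atrium over ventricle (vertical axis) against the log2 of the mean normalized count (horizontal axis) for all tested rows (grey) of snail and scallop, with the tested factors marked in blue (higher in atrium) or orange (higher in ventricle). HAND2 lies at −8.16 near the bottom of the snail rows and HEY1 at 4.01, while GATA6 at 1.23 and HES1 at 1.08 lie at the inner edge of the rows, which the authors' fold limit sets.

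Scallop HES1 (Miz0101610.1) was higher in the atrium too, at 446.6, 329.5 and 338.9 in atria 1 to 3 and at 119.5, 224.1 and 195.2 in ventricles 1 to 3. The lowest atrium was 1.47 times the highest ventricle, and ventricle 1 lay below the other ventricles. Atria held 371.7 ± 65.1 and ventricles 179.6 ± 54.0 (n = 3), a log2 fold change of 1.08 ± 0.43 (95% interval 0.13 to 2.03; limma adjusted p = 0.0359). The call was lost without any 1 of the 3 atria or without ventricle 1, where limma adjusted p ran from 0.0754 to 0.143, and the adjusted p in the authors' deposited table was 0.0534. Over all tested rows, ventricle 3 lay 38.1% of the way from the other ventricles toward the atria, by the median. For HES1 its value of 195.2 fell between those of ventricles 1 and 2. Without ventricle 3 the log2 fold change of HES1 was 1.16 (limma adjusted p = 0.0236). Scaling moved the value: it was 1.57 after the TMM scaling and 2.30 after the ribosomal rescaling, and a call under each. Of all tested scallop rows, 42% were called toward the atrium and 45.6% toward the ventricle. In scallop the muscle markers had 10 of 13 calls toward the ventricle and 3 toward the atrium, with sums of 810840 to 987243 in atria and 1537370 to 2888430 in ventricles. The hemocyte markers (17 tested of 19 listed) had 10 atrial and 6 ventricular calls, with sums of 66705 to 82143 and 35563 to 60648. The neuronal markers (32 tested of 33 listed) had 28 and 2, with sums of 21217 to 23290 and 9374 to 10063. Excretory markers (16 tested of 18 listed) had 11 and 3 calls, with sums of 15484 to 25547 and 16396 to 33486, which overlapped between the chambers. Their LRP2 row Miz0195010.1, called toward the ventricle, stood at 1423 ± 624 in atria and 16148.5 ± 9783 in ventricles. The excretory sums without this row were not taken, so their overlap may rest on it. Cilia and epithelium markers (11 tested of 12 listed) had 10 and 1, with overlapping sums of 3806 to 4229 and 3185 to 5644. The 1 ventricular call among these was KRTCAP2, taken in by its symbol only. It was the largest row of that list, at 1463 ± 174 in atria and 3933 ± 1701 in ventricles. The sums without it were not taken, so their overlap may rest on this row. Of the listed scallop markers, 1 hemocyte, 1 neuronal and 2 excretory genes had no ventricular read, against 192 of all 4195 listed scallop rows. The part of these cell types in the HES1 difference was not tested.

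HES1 was the one factor listed in each species, and its chamber difference could be compared between them. The atrial excess was 2.07-fold in scallop and 2.13-fold in snail. The difference between the log2 fold changes, scallop minus snail, was 0.00071 with a 95% interval of −0.96 to 0.96 (limma interaction of species and chamber, adjusted p = 0.999 over 323 shared symbols). Of these symbols, 23.5% had an adjusted p under 0.05 in the interaction, with no fold limit applied. The interval still allows chamber effects that differ by nearly 2-fold in either direction. Each row was listed because it passed the authors' selection, which sets a least size for both values.

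**Figure D3:**
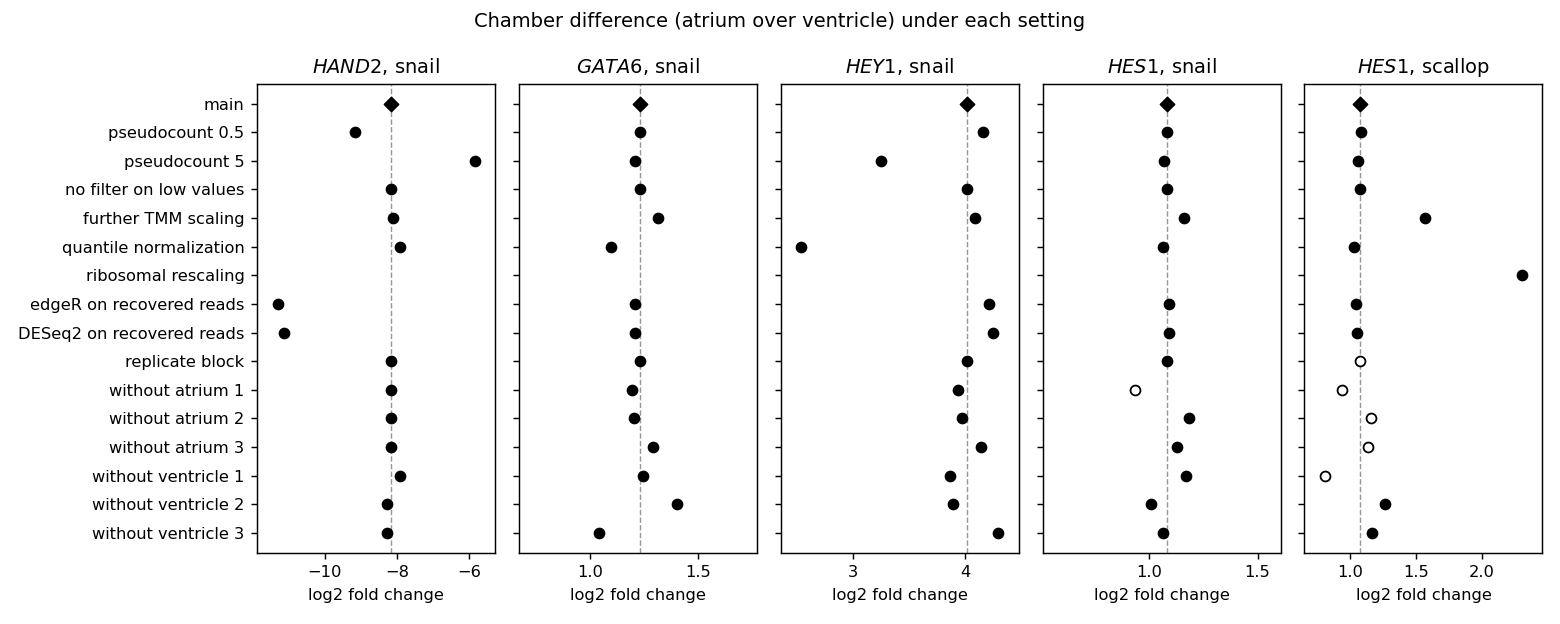
Log2 fold change of atrium over ventricle (horizontal axes, 1 scale per panel) of the 5 tested rows under the main settings (diamond and dashed line) and each alternative (circles); filled symbols are calls, open symbols are not. HAND2, GATA6 and HEY1 are filled under every setting drawn, snail HES1 is open without atrium 1, and scallop HES1 is open with the replicate block and in 4 of 6 fits without 1 library; the ribosomal rescaling was drawn for scallop only.

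Other genes of the Notch and Hairy pathway were counted from a fixed list. Calls over all tested rows were 46.9% atrial and 37% ventricular in snail, and 42% and 45.6% in scallop. In snail 5 were listed: 3 were called toward the atrium, none toward the ventricle and 2 were not called (median log2 fold change 1.08, against 1.22 over all tested rows). Beside HES1 and HEY1, the third was mam, named for Mastermind, a co-activator of the Notch complex, at 31.5 ± 6.59 in atria and 11.6 ± 5.43 in ventricles (n = 3; limma adjusted p = 0.0267). It lost the call under quantile normalization and without atrium 1, atrium 2 or ventricle 3; without atrium 1, where HES1 lost it too, 1 atrial call was left, and without ventricle 3 there were 2 and 1 ventricular. The snail JAG1 row, a Notch ligand, stood at 52.8 ± 8.58 and 109.6 ± 55.7 and was not called (limma adjusted p = 0.0616). In this main fit JAG1 was the only row of the list toward the ventricle. Under quantile normalization, as without ventricle 3, the list had 2 atrial calls and 1 ventricular call.

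In scallop 10 genes of this list were present, with 6 called toward the atrium, 3 toward the ventricle and 1 not called (median 1.16, against −1.01 over all tested rows). The receptor NOTCH2 stood at 7172 ± 779 in atria and 3420 ± 2133 in ventricles (adjusted p = 0.021 in limma), its ligand JAG1 at 2191 ± 478 and 1059 ± 218 (limma adjusted p = 0.0182), and the more abundant DLL1 ligand copy (Miz0034480.1) at 2063 ± 104 and 814.6 ± 291 (limma adjusted p = 0.00873). The other DLL1 copy (Miz0005350.1) stood at 1019 ± 186 and 109.9 ± 9.06 (limma adjusted p = 0.000301). PSENEN, a subunit of the gamma-secretase that cuts Notch, lay toward the ventricle at 1966 ± 209 and 4590 ± 2047 (limma adjusted p = 0.0259), but the ribosomal rescaling turned it toward the atrium. The NOTCH2 and PSENEN calls were each lost in 5 of 6 fits without 1 library and that of JAG1 in 3. Neither DLL1 copy lost its call in these fits. Atrial calls of the list fell to 2 without atrium 2 and to 3 without atrium 1, atrium 3, ventricle 1 or ventricle 2, and ventricular calls to 1 without atrium 1 and to 2 without each of the other 4. The TMM and quantile settings each left 1 ventricular call of the list, and the ribosomal rescaling left 0.

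In the heart factor list, HAND2 and GATA6 were the 2 tested snail rows. In scallop 7 were listed, 4 called toward the atrium and 3 toward the ventricle (median 2.48; 4 and 0 after the ribosomal rescaling, which turned TBX2). Over all tested scallop rows 42% and 45.6% were called in these directions, with a median of −1.01. The forkhead factor FOXF1 stood at 1544 ± 92.7 in atria and 146.0 ± 156 in ventricles (adjusted p = 0.00173 in limma), and the Iroquois factor IRX4 at 921.5 ± 546 and 123.8 ± 111. Both T-box TBX20 copies lay toward the ventricle, with log2 fold changes of −1.63 and −1.73, and neither was called after the ribosomal rescaling. Nuclear receptors other than svp divided as well. In snail 3 of 6 listed were tested, and NR1D2, a clock-linked repressor, stood at 212.0 ± 33.4 in atria and 47.0 ± 26.0 in ventricles (adjusted p = 0.00339 in limma), VDR, a receptor of the vitamin D type, at 39.6 ± 12.1 and 4.70 ± 1.89 (limma adjusted p = 0.00254), and the estrogen-related receptor ESRRG at 10.4 ± 1.18 and 31.9 ± 14.6 (limma adjusted p = 0.0187, not called without ventricle 1). ESRRG was called toward the ventricle in scallop too, at 4565 ± 319 and 12444 ± 5651 (limma adjusted p = 0.0114; lost under each of the 3 scalings), and hnf4a toward the atrium, at 1647 ± 234 and 598.0 ± 584 (limma adjusted p = 0.017; lost without atrium 2, ventricle 1 or ventricle 2).

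**Figure D4:**
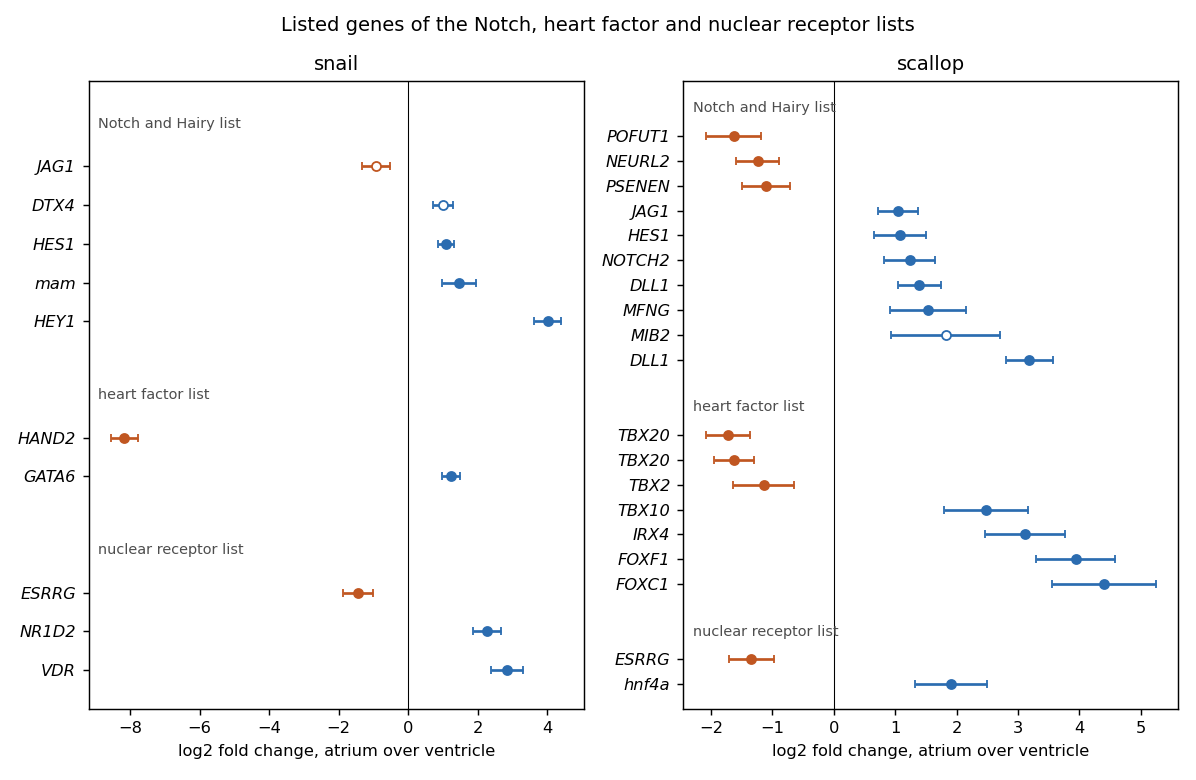
Log2 fold change of atrium over ventricle ± SE (horizontal axes) for the tested genes of the Notch and Hairy, heart factor and nuclear receptor lists in snail and scallop, 1 line per row of the tables; blue lies toward the atrium, orange toward the ventricle, and open circles were not called. In snail HAND2, ESRRG and JAG1 lie left of 0; in scallop 3 Notch list genes, 3 T-box rows and ESRRG do.

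The genes with the most similar profiles were found by Pearson correlation of log2(normalized count + 1) over the 6 libraries of a species. All listed rows share a chamber difference, which raises such values, and 264 of 848 snail rows with a symbol exceeded 0.9 with HAND2, 175 with HEY1, 148 with GATA6 and 140 with HES1. Closest to HAND2 were ATP5B (r = 0.998), a subunit of the mitochondrial ATP synthase, PHPT1 (r = 0.996) and CYC1 (r = 0.995), the cytochrome c1 of respiratory complex III. HEY1 lay closest to NID1 (r = 0.998), a basement membrane protein, UAP1 (r = 0.994) and SLC3A1 (r = 0.993). GATA6 lay closest to CCDC88A (r = 0.996), the thrombospondin-repeat gene THSD4 (r = 0.996) and BZRAP1 (r = 0.994). Snail HES1 lay closest to LZTS2 (r = 0.993), IL16 (r = 0.990) and TMED7 (r = 0.987), and svp to C4orf33 (r = 0.985), YIPF6 (r = 0.982) and MFSD6 (r = 0.979). Scallop HES1 lay closest to AQP4 (r = 0.998), a water channel, SATL1 (r = 0.994) and CPN2 (r = 0.988), with 167 of 2410 rows above 0.9.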

How the data were processed

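Atria and ventricles of 2 species were profiled with 3 libraries per chamber, grouped by sample title. Per the submitters' processing notes, the tools included DESeq2 1.20.0, StringTie 1.3.3b, featureCounts 1.5.0 and HISAT2 2.0.5, without their roles. The build, the annotation and the use of strand are not given in the sources used here; reads shared with overlapping genes or near copies cannot be set apart. The library columns hold a signal, normalized counts, deposited by the authors: 100% of values in each of the 12 libraries were whole multiples of 1 step within 0.01 read. The authors also deposited log2 fold changes with SE, test scores and p-values for ventricle over atrium. Rows with a mean of at least 10 (1489 snail, 3927 scallop) were tested with limma 3.58.1 (R 4.3.3; mean-variance trend, log2(normalized count + 1), Benjamini-Hochberg adjustment over those rows); the pseudocount understates changes of low genes. The species comparison was a limma interaction on symbols in both tables, with the highest copy of each. Alternatives were pseudocounts 0.5 and 5, no filter, 3 scalings, edgeR 4.0.16 and DESeq2 1.42.0 on recovered reads, a replicate block and leaving out each library. Read-ratio intervals are exact binomial (95%) and cover counting error only; PCR reads are not independent molecules. All members were named. Of each list the 4 called genes with the highest mean per species, and the 3 most correlated genes per member, were named. Snail JAG1 and the less abundant scallop DLL1 copy were added after their values were seen. Members and lists were chosen with earlier results of these data known.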

Additional observations from a re-analysis of the deposited data

How the results depend on the processing

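HAND2, GATA6 and HEY1 of snail kept direction and call under every alternative run. Without 1 library their log2 fold changes ran from −8.29 to −7.93, 1.04 to 1.40 and 3.86 to 4.29. HAND2 gave −9.16 and −5.86 with pseudocounts 0.5 and 5, as a gene with no atrial read must depend on the added count. It gave −11.3 with edgeR and −11.1 with DESeq2, where no pseudocount was set here. HEY1 gave 2.54 under quantile normalization. Snail HES1 ran from 0.93 (without atrium 1, where its call was lost) to 1.18 without 1 library, and the called snail members then numbered 3 to 4; with no filter on low values they numbered 5, svp included. The svp difference ran from 1.61 to 2.95 without 1 library, was 1.16 with pseudocount 5 and went to 0.051 under quantile normalization; it had no value in edgeR or DESeq2, where the filter left it out, and with no filter its limma adjusted p was 0.0294. Scallop HES1 ran from 0.81 to 1.26 without 1 library, with the called scallop members at 0 or 1, and reached 1.57 and 2.30 after the TMM and ribosomal scalings. The HES1 difference between species, near 0 at 0.00071, turned to −0.0039 with pseudocount 5 and to −0.036 under quantile normalization, was 0.29 after the TMM scaling (limma adjusted p = 0.81), and ran from −0.27 to 0.18 without 1 library, with limma adjusted p from 0.87 to 0.992. Called rows of the whole scallop table numbered 3440, against 2122 under quantile normalization, 1800 after the ribosomal rescaling and 1808 to 3483 without 1 library; snail had 1249, and 961 to 1282. The cause of these moves was not tested.

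The labels tie same-numbered atria and ventricles only by that number, and the correlations of their deviations were −0.059, −0.092 and 0.059 in snail and −0.13, −0.16 and −0.12 in scallop. With the replicate block, scallop HES1 kept its log2 fold change of 1.08 with a limma adjusted p of 0.0912, leaving 0 scallop members called, and the 4 snail calls stayed. No ribosomal rescaling was run in snail, where 0 cytosolic ribosomal protein rows were listed. Depth limits the low rows most: svp rests on 5 ventricular reads and HEY1 on 10.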

Other observations

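Below the minimum mean of 10, 3 snail rows of the heart factor and nuclear receptor lists had atrial reads and none in any ventricle, and were not tested. The same held for ventricular reads in 218 of all 1886 listed snail rows, so a count of 0 there is not particular to them. TWIST2, a basic helix-loop-helix factor like HAND2, stood at 5.39 ± 2.72 normalized counts in atria (n = 3), hnf4a, a nuclear receptor of liver, kidney and gut in vertebrates, at 4.49 ± 2.89, and RARA, a retinoic acid receptor, at 3.79 ± 1.43. A total of 3 reads over the 3 ventricles, taken here as the limit for a count of 0, equals 1.33 normalized counts.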
